A study of Mus musculus with 6 samples.

Results

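Mitochondrial ribosomal protein genes were taken as every row of the deposited count table whose Ensembl identifier belongs to a protein-coding gene with a symbol of Mrpl or Mrps followed by a digit in the GENCODE M21 annotation. This gave 75 of the 17068 genes in the table. By symbol, 46 are named for the large subunit (Mrpl) and 29 for the small subunit (Mrps). Subunit counts and means below follow the symbol unless stated otherwise. The annotation used here holds 78 such genes, and Mrpl2, Mrpl33 and Mrpl53 were not analysed here. Identifiers were matched without their version, which was identical for 67 of the 75 genes. Membership follows from the symbol, and no value of a gene entered the rule.

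Mitochondria carry their own ribosome, which translates the few proteins encoded in mitochondrial DNA, all of them parts of the oxidative phosphorylation complexes. Its ribosomal RNAs are transcribed from mitochondrial DNA, whereas its proteins are encoded in the nucleus, translated in the cytosol and imported. Some of these proteins have a counterpart in the bacterial ribosome and others were gained by mitochondria.

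The samples are bulk RNA-Seq libraries of dissected lateral cortex from 6 female mouse embryos of strain c57/bl6 at embryonic day 12.5. The 4 controls were Cre-negative, and by their labels controls 1, 2 and 4 were Foxp1 fl/+ and control 3 was Foxp1 fl/fl, so each embryo carried at least 1 floxed Foxp1 allele. The 2 embryos labelled Foxp1cKO were Foxp1 fl/fl;Emx1Cre. Emx1Cre is active in the dorsal forebrain lineage, so vessels, blood cells and cells that entered from the ventral forebrain keep Foxp1, a forkhead transcription factor. The comparison asks how transcript levels in the early cortex differ when Foxp1 is targeted in that lineage.

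Gene counts summed to 50076008 in the smallest library and 78346979 in the largest, and each of the 75 genes had at least 367 counts in every library. Levels are given as CPM, counts relative to a shared library total after scaling by edgeR's TMM factors, on which 3 counts correspond to 0.0381 to 0.0596 CPM. Foxp1 itself was counted at 59.7, 60.8, 71.2 and 79.1 CPM in controls 1 to 4 and 83.2 and 76.8 CPM in the libraries labelled Foxp1cKO, and it was not lower in the latter (log2 fold change 0.24, SE 0.129, edgeR adjusted p = 0.468). The gene-level count does not separate floxed exons from the rest of the gene, and each group keeps the name its label gives. Of the cortical markers, 9 dorsal progenitor genes including Emx1 and Pax6 and 9 neuronal genes including Dcx and Tbr1 were measured in every library, and 0 genes of either list had an edgeR adjusted p under 0.05 (1 progenitor gene, Fabp7, was lower at an unadjusted p under 0.05, and DESeq2 called 0). Ventral telencephalon genes, which should be scarce in lateral cortex, summed to 769.6 CPM in control 3 and to 216 to 498 CPM in the other libraries. Red cell genes summed to 1100 to 1451 CPM in controls 1 to 3, to 3544 CPM in control 4, and to 3849 and 4143 CPM in the libraries labelled Foxp1cKO. An exact permutation test of 4 libraries against 2 cannot go below a p of 0.0667, or 0.133 when doubled for 2 sides. Tests of single genes are therefore from edgeR's quasi-likelihood fit across all 17068 genes with Benjamini-Hochberg adjustment.

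Fold changes of the mitochondrial ribosomal protein genes leaned to lower values in the libraries labelled Foxp1cKO. The fitted log2 fold change was below 0 for 65 of 75 genes (86.7%), against 8661 of all 17068 genes (50.7%). Its median over the 75 genes was -0.18, a level 12.03% lower, with quartiles of -0.25 and -0.086 and a range from -0.50 to 0.22. The median over all genes was -0.0044, and over the 6907 genes that lie within the same range of mean CPM it was -0.021 with 54.2% below 0.

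No single gene passed the threshold in the main test. With edgeR, 0 of 75 genes had an adjusted p under 0.05, and adjusted p-values ran from 0.242 to 0.996. Over all genes the same test called 0 lower (0%) and 26 higher (0.152%). At an unadjusted p under 0.05, 19 of the 75 genes were lower and 0 were higher, where 6.5% of all genes were lower and 6.53% were higher. DESeq2, run as an alternative, called 3 of the 75 genes lower, Mrpl20, Mrps23 and Mrpl11, and 0 higher, against 1.31% of all genes lower and 2.06% higher.

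Both libraries labelled Foxp1cKO lay below all 4 controls for 35 of the 75 genes (46.7%), where 13.1% of all genes did, and above all controls for 1 gene, Mrpl23, where 11.5% of all genes did. Among genes in the same range of mean CPM, 16% lay below all controls. The other 39 genes had overlapping groups. In bulk tissue, fewer cells that express a gene strongly and less RNA of that gene per cell cannot be told apart.

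**Figure D1:**
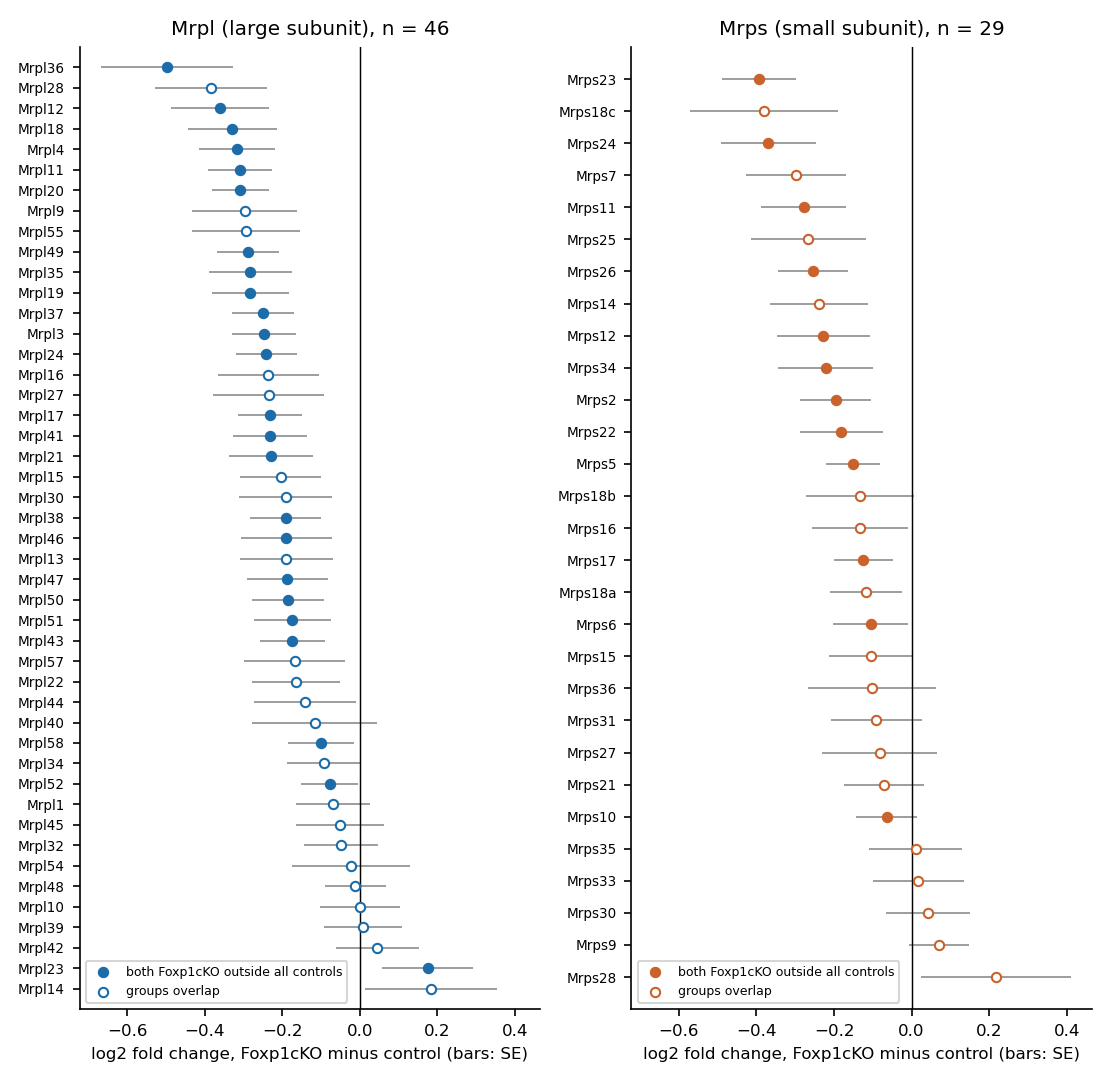
Fitted log2 fold change (horizontal axis, libraries labelled Foxp1cKO minus controls) of each of the 46 Mrpl genes and the 29 Mrps genes, sorted within subunit, with bars of 1 standard error. Filled points mark genes whose 2 libraries labelled Foxp1cKO both lie outside the 4 controls, which holds for 23 Mrpl and 12 Mrps genes on the lower side and for Mrpl23 on the higher side.

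The promoters of 4 of these genes are shown because they lie at the ends of the range of fold changes, or, for Mrpl12, belong to a protein of the ribosome's stalk. Mrps23 and Mrps24 are among the genes with the most negative fold changes and Mrps9 is among those with the most positive. Each run is the 200 bases before the RefSeq start of the gene in GRCm38.p6, 5′ to 3′ on the gene's strand. Capitals mark matches, wholly within the run, to any of 7 motifs searched on both strands. The Mrps23 run is at chr11:88204188-88204387 on the + strand and holds no match, the ETS match of this gene beginning after the start at position 16. That of Mrps24 is at chr11:5707702-5707901 on the - strand, within the span of the GENCODE gene, and holds a TATA box match that begins at position -181 from the start. In Mrpl12 the run is at chr11:120484437-120484636 on the + strand, its last 24 bases lie in the gene's GENCODE exon, and an NRF1 match begins at position -79. The Mrps9 run is at chr1:42851033-42851232 on the + strand with a CCAAT box match that begins at position -86, and an NRF1 match that spans the start from position -3 is not in capitals.
Mrps23: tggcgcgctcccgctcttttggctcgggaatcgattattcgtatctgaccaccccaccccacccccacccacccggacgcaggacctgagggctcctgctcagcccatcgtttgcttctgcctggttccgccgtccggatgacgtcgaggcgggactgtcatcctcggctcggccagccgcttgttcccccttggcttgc
Mrps24: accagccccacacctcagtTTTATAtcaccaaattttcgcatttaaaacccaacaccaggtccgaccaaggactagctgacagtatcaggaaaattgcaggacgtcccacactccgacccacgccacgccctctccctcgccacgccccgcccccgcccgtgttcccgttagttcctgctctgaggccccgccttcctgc
Mrpl12: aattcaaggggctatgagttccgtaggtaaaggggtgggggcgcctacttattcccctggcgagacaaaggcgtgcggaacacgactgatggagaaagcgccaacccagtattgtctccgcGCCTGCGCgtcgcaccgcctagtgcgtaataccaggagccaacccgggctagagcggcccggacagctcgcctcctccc
Mrps9: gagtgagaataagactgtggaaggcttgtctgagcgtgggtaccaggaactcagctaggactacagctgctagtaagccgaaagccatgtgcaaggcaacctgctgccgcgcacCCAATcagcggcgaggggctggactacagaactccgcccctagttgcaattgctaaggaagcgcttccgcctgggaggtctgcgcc

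RefSeq promoter windows from 250 bases before to 50 bases after the start were found for 66 of the 75 genes and for 27025 genes in all. The median GC content was 58.2% in the windows of the mitochondrial ribosomal protein genes and 52.7% in all windows. The ETS motif CCGGAAG, read by GABP among other factors, was present in 24 of 66 genes (36.4%) and in 9.93% of all genes. For the NRF1 motif GCGCANGC, named for nuclear respiratory factor 1, the numbers were 21 of 66 (31.8%) and 11.2%. YY1's motif ATGGCGGC was present in 11 of 66 (16.7%) and in 2.6%. These are motifs of regulators known for nuclear genes of the mitochondrion, and each was more frequent here than among all genes with a window. Those genes were not limited to the genes of the count table, and they were not matched for GC content or level. HIF's core GACGTG was found in 7 of 66 genes (10.6% against 7.15%), the E-box CACGTG in 4 (6.06% against 8.09%), CCAAT in 24 (36.4% against 41.1%) and TATAAA in 5 (7.58% against 15.7%). In the last group of motifs the shares lay nearer to those of all genes or below them.

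Fold changes of genes with and without each motif are given as a description. The median log2 fold change was -0.17 with the ETS motif and -0.19 without it, -0.14 with and -0.19 without the NRF1 motif, and -0.18 with and -0.17 without the YY1 motif. With and without CCAAT it was -0.16 and -0.18, and with and without TATAAA it was -0.19 and -0.17. Genes with the HIF core had a median of -0.23 and those without it -0.17. The 4 genes with an E-box, Mrpl20, Mrpl36, Mrpl37 and Mrps18c, had a median of -0.34 and those without it -0.17. The HIF core and the E-box share the letters ACGTG. These medians were not tested, and a match marks letters in a window and no binding.

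**Figure D2:**
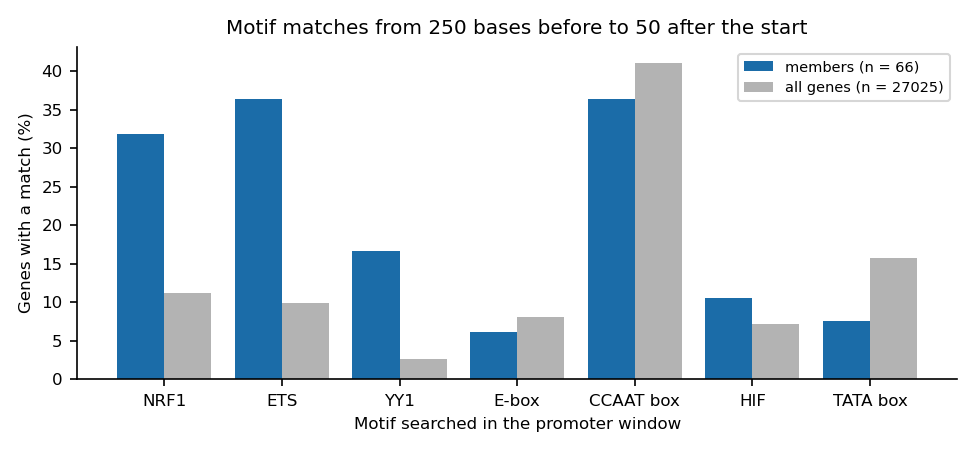
Share of genes in percent (vertical axis) whose window from 250 bases before to 50 bases after the RefSeq start holds each motif on either strand, for 66 mitochondrial ribosomal protein genes and for all 27025 genes with a window. The ETS, NRF1 and YY1 bars are higher for the mitochondrial ribosomal protein genes (36.4%, 31.8% and 16.7%) than for all genes (9.93%, 11.2% and 2.6%).

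Many of these genes share their start region with a neighbour. An opposite-strand protein-coding gene began within 1000 bases for 32 of the 75 genes (42.7%), against 2139 of the 14274 protein-coding genes in the table (15.0%). Over the protein-coding genes in the table, 51.7% of fold changes were below 0 and the median was -0.0093. Of the 32 partners, 30 were in the table and 22 of those had a fold change below 0, with a median of -0.065. One such pair joins both subunits, Mrpl46 and Mrps11, each counted among the 22 as the other's partner. Their starts on chromosome 7 lie 412 bases apart and their log2 fold changes were -0.19 and -0.28. Mrpl36 and Ndufs6, a subunit of respiratory complex I, start 29 bases apart and had values of -0.50 and -0.22. Mrps12 starts 172 bases from Sars2, the mitochondrial seryl-tRNA synthetase, with values of -0.23 and -0.26. Mrpl41 and its neighbour Pnpla7 differed in sign, with -0.23 and 0.35, and none of the partners in the table passed an adjusted p of 0.05 with edgeR.

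Exons of 27 of the 75 genes overlap an annotated gene on the opposite strand and those of 6 overlap one on the same strand. Whether strand was used in counting is not given in the sources used here, so reads at such overlaps may be shared or discarded. Among the 44 genes without either overlap, 37 had a fold change below 0 and the median was -0.14. Chromosome 11 held 11 of the 75 genes, and the others were spread over 16 chromosomes.

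The level of these genes was moderate and varied from gene to gene. Per kilobase of exon (RPKM, CPM divided by the length of the merged GENCODE exons), the mean of the controls ran from 2.61 for Mrpl23 to 38.5 for Mrpl34, a 14.7-fold range, with a median of 12.8. Merged exon lengths ran from 607 to 8631 bases, so ranks by RPKM depend on annotated length. Mrpl34, with 607 bases, had a mean of 23.3 CPM in the controls, and Mrps35, with 8631 bases, had 33.4 CPM. The coefficient of variation over the 4 controls lay between 1.33% for Mrpl52 and 19.97% for Mrps28 and a median of 8.51%.

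In the large subunit the 3 highest RPKM levels in the controls were those of Mrpl34 at 38.5, Mrpl28 at 38.01 and Mrpl18 at 35.8. Mrpl34, the counterpart of bacterial L34, was counted at 22.7, 23.4, 22.8 and 24.4 CPM in controls 1 to 4 and 20.7 and 23.1 CPM in the libraries labelled Foxp1cKO. The library labelled Foxp1cKO 1 was below all controls and the other was within them (log2 fold change -0.0932, SE 0.0932). Mrpl18, of the family that contacts 5S rRNA in other ribosomes, was at 51.5, 49.3, 45.3 and 54.3 CPM in controls 1 to 4 and 35.9 and 43.9 CPM in the libraries labelled Foxp1cKO. Here both lay below every control (log2 fold change -0.33, SE 0.115, or -0.19 without Foxp1cKO 1 and -0.50 without Foxp1cKO 2). The lowest levels per length were those of Mrpl23 and of Mrpl48 at 3.46, and Mrpl48 had 28.4, 27.8, 29.4 and 27.3 CPM in controls 1 to 4 and 27.9 and 28.2 CPM in the libraries labelled Foxp1cKO. Its groups overlapped and its log2 fold change was -0.0116 (SE 0.0788).

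In the small subunit the highest RPKM levels in the controls were those of Mrps21 at 38.4, Mrps23 at 25.6 and Mrps15 at 20.9. Mrps21, the counterpart of bacterial S21, was at 26.9, 27.4, 26.99 and 32.2 CPM in controls 1 to 4 and 26.8 and 27.2 CPM in the libraries labelled Foxp1cKO. Control 4 stood above the other 5 libraries, which lay close together (log2 fold change -0.0714, SE 0.104). Mrps15 was at 38.1, 32.5, 32.6 and 38.2 CPM in controls 1 to 4 and 34.5 and 31.3 CPM in the libraries labelled Foxp1cKO, with overlapping groups (log2 fold change -0.10, SE 0.107). The lowest levels per length were those of Mrps35 at 3.87 RPKM and Mrps10 at 4.27 RPKM. Mrps35 was counted at 34.3, 33.2, 29.2 and 36.8 CPM in controls 1 to 4 and 30.7 and 36.5 CPM in the libraries labelled Foxp1cKO, and the spread within the groups spanned the difference between them (log2 fold change 0.0102, SE 0.120). For Mrps10 the counts were 33.2, 34.1, 36.6 and 33.996 CPM in controls 1 to 4 and 33.04 and 32.9 CPM in the libraries labelled Foxp1cKO. The latter lay just under the lowest control (log2 fold change -0.0636, SE 0.0788).

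The 5 genes with the most negative fold changes come from both subunits. Mrpl36 (chr13:73328513-73332178, + strand) encodes one of the smallest proteins of the large subunit. It was counted at 17.6, 17.2, 15.9 and 20.8 CPM in controls 1 to 4 and 10.7 and 14.6 CPM in the libraries labelled Foxp1cKO. Both of the latter were below every control, although they differed from each other by more than most pairs of controls did (log2 fold change -0.50, SE 0.171, 29.1% lower, edgeR adjusted p = 0.319). The fold change was -0.29 without the library labelled Foxp1cKO 1 and -0.76 without Foxp1cKO 2. Mrps23 (chr11:88204388-88211507, + strand), a small-subunit protein without a bacterial counterpart whose promoter is printed above, was at 41.2, 39.2, 36.7 and 42.7 CPM in controls 1 to 4 and 28.8 and 31.97 CPM in the libraries labelled Foxp1cKO. Here the groups were clearly apart (log2 fold change -0.39, SE 0.0953), the edgeR adjusted p was 0.242, and DESeq2 gave an adjusted p of 0.0177.

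Mrpl28 (chr17:26123500-26126613, + strand) was at 56.4, 51.8, 46.2 and 55.4 CPM in controls 1 to 4 and 34.1 and 46.2 CPM in the libraries labelled Foxp1cKO. Control 3 lay between these last 2 libraries, so the groups overlapped narrowly (log2 fold change -0.38, SE 0.143, edgeR adjusted p = 0.348). It was -0.18 without the library labelled Foxp1cKO 1 and -0.64 without Foxp1cKO 2. Mrps18c (chr5:100798627-100804471, + strand) was the lowest of the 5 per length (8.15 RPKM in the controls), at 9.33, 9.03, 6.86 and 9.87 CPM in controls 1 to 4 and 7.29 and 6.196 CPM in the libraries labelled Foxp1cKO. Control 3 again lay within the range of the other group (log2 fold change -0.38, SE 0.190, edgeR adjusted p = 0.442), and its exons overlap a predicted gene on the same strand. Mrps24 (chr11:5703983-5715680, - strand), a counterpart of bacterial S3, was at 24.8, 24.2, 21.2 and 25.98 CPM in controls 1 to 4 and 17.1 and 20.04 CPM in the libraries labelled Foxp1cKO. Both were below all controls (log2 fold change -0.37, SE 0.122, edgeR adjusted p = 0.309), and its exons overlap Urgcp on the same strand.

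At the other end, 10 genes had fold changes above 0, and the 5 most positive were Mrps28, Mrpl14, Mrpl23, Mrps9 and Mrpl42. Mrps28 (chr3:8802146-8923918, - strand) was counted at 12.5, 11.6, 11.04 and 16.8 CPM in controls 1 to 4 and 13.8 and 16.4 CPM in the libraries labelled Foxp1cKO. Control 4 was the highest of the 6 libraries, and the log2 fold change was 0.22 (SE 0.193), or 0.073 without the library labelled Foxp1cKO 2 and 0.37 without control 4. Mrpl14 (chr17:45686322-45698495, + strand), which binds the assembly factor Malsu1, was at 14.8, 13.3, 15.4 and 19.6 CPM in controls 1 to 4 and 16.7 and 19.2 CPM in the libraries labelled Foxp1cKO. Again control 4 was highest and the groups overlapped (log2 fold change 0.18, SE 0.171, or 0.064 without Foxp1cKO 2 and 0.31 without control 4). Mrpl23 (chr7:142532686-142540747, + strand), of the family that lines the exit tunnel, was at 13.2, 12.6, 12.3 and 12.9 CPM in controls 1 to 4 and 13.3 and 15.5 CPM in the libraries labelled Foxp1cKO. The latter were both above every control, the first of them by little (log2 fold change 0.17, SE 0.116, edgeR adjusted p = 0.551). Without Foxp1cKO 2 it was 0.041 and without Foxp1cKO 1 it was 0.28.

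Mrps9 (chr1:42851233-42905683, + strand), the counterpart of bacterial S9, was counted at 70.4, 63.8, 68.7 and 72.5 CPM in controls 1 to 4 and 72.7 and 71.96 CPM in the libraries labelled Foxp1cKO. The second of these lay within the controls and the first just above them (log2 fold change 0.0704, SE 0.0780). Mrpl42 (chr10:95480805-95501940, - strand), which has no bacterial counterpart, was at 45.9, 44.8, 40.97 and 52.2 CPM in controls 1 to 4 and 49.1 and 45.8 CPM in the libraries labelled Foxp1cKO. All of these values overlapped (log2 fold change 0.0456, SE 0.108), and edgeR adjusted p-values of the 5 genes ran from 0.551 to 0.891.

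Several members have roles beyond a structural part of the ribosome or a debated place in it. Mrpl12 (chr11:120484613-120489065, + strand) and Mrpl10 form part of the flexible stalk that recruits translation factors. Mrpl12 was counted at 52.1, 46.9, 46.02 and 60.04 CPM in controls 1 to 4 and 38.03 and 41.8 CPM in the libraries labelled Foxp1cKO. The groups were apart (log2 fold change -0.36, SE 0.127, edgeR adjusted p = 0.328). The authors, whose DESeq2 model included litter, list Mrpl12 among their top downregulated genes. DESeq2 as run here, without litter, did not call it (adjusted p = 0.162). Mrpl10, which anchors the Mrpl12 copies, was at 40.6, 42.4, 38.3 and 47.6 CPM in controls 1 to 4 and 40.8 and 43.7 CPM in the libraries labelled Foxp1cKO. There the groups were level (log2 fold change 0.00110, SE 0.104). Mrpl11, at the base of the same stalk, was at 44.5, 42.8, 41.6 and 46.3 CPM in controls 1 to 4 and 34.2 and 36.6 CPM in the libraries labelled Foxp1cKO. It was lower in both libraries (log2 fold change -0.31, SE 0.0815, edgeR adjusted p = 0.257), and DESeq2 gave an adjusted p of 0.0332. Differences between the stalk genes were not tested.

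Mrpl58, also known as Ict1, is a peptidyl-tRNA hydrolase that rescues stalled ribosomes. It was at 42.9, 40.3, 40.7 and 46.05 CPM in controls 1 to 4 and 39.4 and 39.9 CPM in the libraries labelled Foxp1cKO. Both lay under the lowest control by a small margin (log2 fold change -0.10, SE 0.0841). Mrps12 carries the decoding-centre protein of the small subunit and was at 15.7, 15.4, 13.2 and 14.6 CPM in controls 1 to 4 and 12.5 and 12.6 CPM in the libraries labelled Foxp1cKO. Here too both were under the lowest control (log2 fold change -0.23, SE 0.120). Mrps30, named for the small subunit, lies in the large subunit in structures of the ribosome and was at 32.5, 34.1, 30.8 and 38.9 CPM in controls 1 to 4 and 35.5 and 34.8 CPM in the libraries labelled Foxp1cKO. Its groups overlapped (log2 fold change 0.0427, SE 0.108). Mrps36 is known as a component of the 2-oxoglutarate dehydrogenase complex and was at 7.78, 8.01, 6.599 and 9.004 CPM in controls 1 to 4 and 7.43 and 7.198 CPM in the libraries labelled Foxp1cKO. Control 3 was the lowest of the 6 libraries and the groups overlapped (log2 fold change -0.10, SE 0.165).

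The Mrps18 family has 3 members that descend from 1 bacterial protein, S18. Mrps18a, whose protein sits in the large subunit despite its name, was at 29.4, 29.7, 31.5 and 26.9 CPM in controls 1 to 4 and 27.7 and 26.5 CPM in the libraries labelled Foxp1cKO. The highest and the lowest of these 6 values were control 3 and the second library labelled Foxp1cKO (log2 fold change -0.12, SE 0.0925). Mrps18b was at 16.9, 15.5, 13.6 and 18.1 CPM in controls 1 to 4 and 14.7 and 14.5 CPM in the libraries labelled Foxp1cKO, with control 3 the lowest of all (log2 fold change -0.13, SE 0.139). With Mrps18c at -0.38, all 3 fold changes were below 0 and none passed the edgeR test (adjusted p from 0.442 to 0.717). Per length, Mrps18c, Mrps18a and Mrps18b were at 8.15, 7.96 and 7.67 RPKM in the controls. Their control means were 8.77, 29.4 and 16.0 CPM over merged exons of 1076, 3690 and 2089 bases.

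One more gene, Mrpl20, is named because DESeq2 called it. It was counted at 41.8, 40.7, 41.1 and 41.8 CPM in controls 1 to 4 and 32.3 and 34.6 CPM in the libraries labelled Foxp1cKO. The controls lay close together and both other libraries were well under them (log2 fold change -0.31, SE 0.0737, edgeR adjusted p = 0.242, DESeq2 adjusted p = 0.0119). Mrpl20 is the counterpart of bacterial L20, a protein that acts early in assembly of the large subunit.

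Both subunits leaned the same way. In the large subunit 41 of 46 genes had a fold change below 0 with a median of -0.19. Of these 46, 15 (32.6%) were lower at an unadjusted edgeR p under 0.05. For the small subunit the numbers were 24 of 29 genes, a median of -0.13 and 4 genes (13.8%). Over all genes, 50.7% were below 0 and 6.5% were lower at that p. Both libraries labelled Foxp1cKO lay below all controls for 23 large-subunit genes (50%) and for 12 small-subunit genes (41.4%), against 13.1% of all genes. The median of the large subunit was lower than that of the small subunit (difference -0.058 on the log2 scale), and the difference ran from -0.104 to -0.019 with single libraries omitted. It was -0.031 without control 4, -0.019 without the library labelled Foxp1cKO 1 and -0.104 without Foxp1cKO 2. Where Mrps18a and Mrps30 were placed in the large subunit and Mrps36 was left out, the medians were -0.19 and -0.14. The difference was then -0.047.

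The same was seen in the libraries one by one. Mean log2 CPM over the 46 large-subunit genes was 5.01, 4.95, 4.88 and 5.11 in controls 1 to 4 and 4.76 and 4.86 in the libraries labelled Foxp1cKO. Over the 29 small-subunit genes it was 4.73, 4.69, 4.61 and 4.83 in the controls and 4.55 and 4.599 in the others. For both subunits control 4 was highest, control 3 was lowest of the controls, and both libraries labelled Foxp1cKO were below control 3. Group means were 4.99 ± 0.095 (SD, n = 4) and 4.81 ± 0.0735 (SD, n = 2) for the large subunit, and 4.72 ± 0.0921 and 4.57 ± 0.0353 for the small subunit. Within a library the large-subunit mean exceeded the small-subunit mean by 0.278, 0.264, 0.271 and 0.275 in the controls and by 0.211 and 0.265 in the libraries labelled Foxp1cKO. The controls agreed closely in this difference, and of the other 2 libraries 1 was among them and 1 was below.

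**Figure D3:**
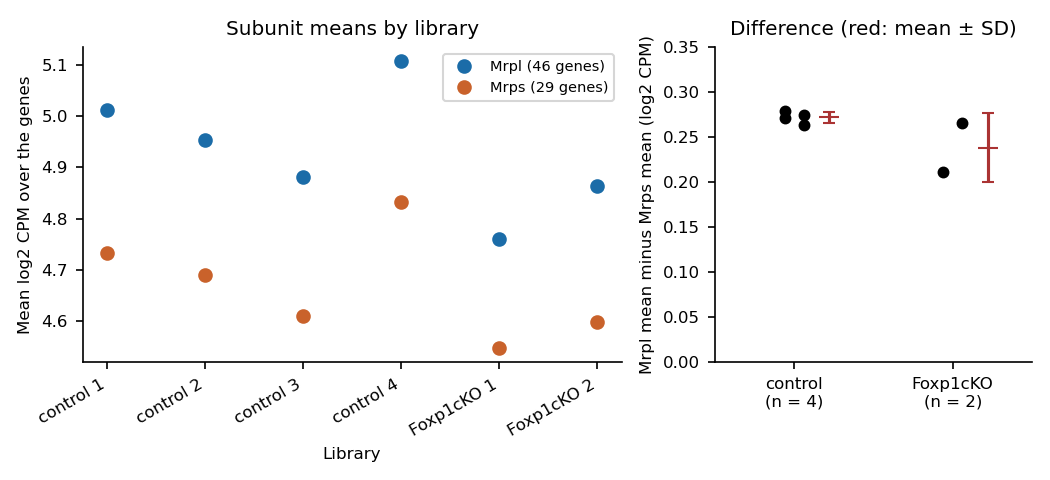
Left, mean log2 CPM over the 46 Mrpl and the 29 Mrps genes (vertical axis) in each of the 6 libraries. Right, the Mrpl mean minus the Mrps mean in each library, with group mean and SD in red. Both subunits are highest in control 4 (5.11 and 4.83) and lowest in the library labelled Foxp1cKO 1 (4.76 and 4.55), and the difference lies between 0.264 and 0.278 in the controls.

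Over all 75 genes, mean log2 CPM was 4.904, 4.85, 4.78 and 5.0002 in controls 1 to 4 and 4.68 and 4.76 in the libraries labelled Foxp1cKO. The group means were 4.88 ± 0.0939 (SD, n = 4) and 4.72 ± 0.0588 (SD, n = 2), a difference of -0.163, which is larger than either SD. Summed over the 75 genes, the level was 2494 ± 147 CPM in the controls and 2219 ± 82.4 CPM in the other group, 11.0% lower. These transcripts made up 0.249% and 0.224% of all counts. The controls were not alike: 68 of 75 genes in control 3 lay below the mean of the controls and 64 of 75 in control 4 lay above it. In the libraries labelled Foxp1cKO 1 and 2, 68 and 63 genes lay below that mean.

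**Figure D4:**
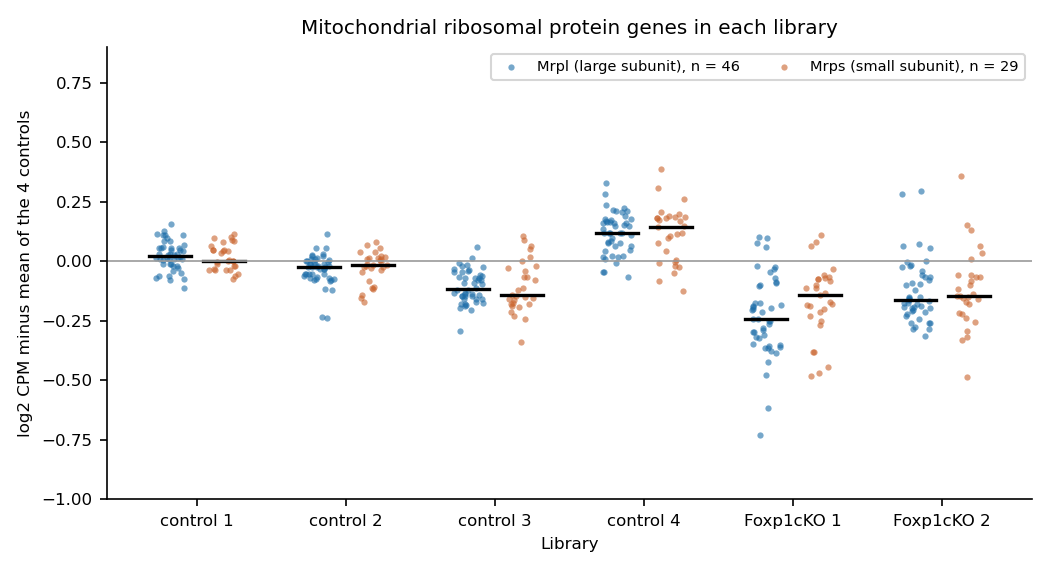
Log2 CPM of each gene minus its mean over the 4 controls (vertical axis), for the 46 Mrpl and 29 Mrps genes in each library, with the median as a black bar. Control 3 (68 of 75 genes below the line) and both libraries labelled Foxp1cKO (68 and 63 below) lie under the control mean, and control 4 (64 above) lies over it.

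In the level of the 75 genes, control 3 was the control nearest to the libraries labelled Foxp1cKO. It was also the only control with 2 floxed alleles. Set against controls 1, 2, 3 and 4 alone, the median difference of the mean of both libraries labelled Foxp1cKO over the 75 genes was -0.191, -0.165, -0.062 and -0.302 on the log2 scale. The library labelled Foxp1cKO 1 was lower than control 3 for 55 of 75 genes, and lower than controls 1, 2 and 4 for 66, 63 and 71. Foxp1cKO 2 was lower than control 3 for 43 genes and lower than the other controls for 61, 58 and 72. Control 3 was itself lower than controls 1, 2 and 4 for 62, 58 and 65 genes. Without control 3, 71 of 75 fold changes were below 0, the median was -0.23 and 34 genes were lower at an unadjusted edgeR p under 0.05. Without control 4, 63 fold changes were below 0, the median was -0.14, and 18 genes were lower and 2 higher at that p. Without the library labelled Foxp1cKO 1 the numbers were 64, -0.16 and 3 lower, with the lone remaining library assumed to vary like the controls. Genes at that p in the whole table, in either direction, moved as well, from 2224 with all libraries to 3009 without control 3, 3252 without control 4 and 941 without Foxp1cKO 1. In each of the pairs above, between 49.2% and 53.2% of all genes were lower. Genotype of the floxed allele, embryo and the higher ventral telencephalon markers of control 3 cannot be told apart with 1 such control.

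Marker genes of other cells differed between the same libraries. In control 4, where the 75 genes were highest, neuronal markers had their lowest sum (2921 CPM, against 4090 to 5318 CPM in the other controls) and dorsal progenitor markers their highest (3276 CPM, against 2393 to 2978 CPM). Control 3 had the highest neuronal and the lowest progenitor sum. Libraries labelled Foxp1cKO had neuronal sums of 3855 and 4016 CPM and progenitor sums of 2890 and 2728 CPM, within the controls, and fold changes were below 0 for 5 of 9 neuronal and 4 of 9 progenitor markers. For the red cell markers 8 of 9 fold changes were above 0 with a median of 1.10. Alas2, Hba-a1, Hba-x and Hbb-y (44.4% of the list, against 11.5% of all genes) were higher in both libraries labelled Foxp1cKO than in every control. Ventral telencephalon markers had 5 of 7 fold changes above 0, and Nkx2-1, which defines the most ventral part, was at 13.2 CPM in control 3 and at 0.216 to 1.07 CPM elsewhere. Of the red cell markers, DESeq2 called Hba-a1 higher (adjusted p = 0.0305). Endothelial markers had 4 of 7 fold changes above 0 and sums of 131 to 202 CPM in controls and 154 and 191 CPM in the other group, and microglial markers 3 of 6, with sums of 18.2 to 28.5 and of 26.7 and 27.3 CPM. Pecam1 among the endothelial markers (log2 fold change 0.65, SE 0.169, DESeq2 adjusted p = 0.0281) and C1qa among the microglial ones (log2 fold change 0.81, SE 0.297) were higher in both libraries labelled Foxp1cKO than in every control. These are 1 of 7 (14.3%) and 1 of 6 (16.7%), near the 11.5% of all genes. Endothelial markers with fold changes below 0 were Tek (-0.35), Tie1 (-0.29) and Cldn5 (-0.053). Among microglial markers P2ry12 (-0.19), Tmem119 (-0.13) and Cx3cr1 (-0.011) were below 0. No marker in the table had a level of 0 in any library. What part these markers have in the levels of the 75 genes was not tested.

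Genes with a counterpart in the bacterial ribosome, 46 in all, had a median log2 fold change of -0.22 with 41 below 0. The 28 genes without one had a median of -0.15 with 23 below 0, and Mrps36 was assigned to neither. The share with both libraries labelled Foxp1cKO below all controls was 45.7% with a counterpart and 50% without, against 13.1% of all genes. The difference between these classes was not tested.

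The rest of the mitochondrial gene expression machinery was described by lists. Among 5 proteins of the mitochondrial ribosome with other symbols (Dap3, Ptcd3, Chchd1, Aurkaip1 and Gadd45gip1), 4 had a fold change below 0 and the median was -0.10. Of 25 genes for assembly of the ribosome and modification of its rRNA, 22 were below 0 with a median of -0.11. Trub2, a pseudouridine synthase, was at 63.3, 62.5, 63.7 and 62.9 CPM in the controls and 51.4 and 55.9 CPM in the libraries labelled Foxp1cKO (log2 fold change -0.23, SE 0.0720). Mettl15, a methyltransferase for the small-subunit rRNA, had the opposite sign at 4.198, 4.63, 5.28 and 5.77 CPM in the controls and 7.21 and 6.86 CPM (log2 fold change 0.50, SE 0.178). For both genes the groups did not overlap, and edgeR adjusted p-values were 0.289 and 0.332.

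Mitochondrial translation factors had 11 of 16 fold changes below 0 and a median of -0.0552, nearer to that of all genes. Tsfm and Tufm, the elongation factor pair that delivers tRNAs to the ribosome, are named here with their values. Tsfm was at 22.9, 20.7, 21.95 and 25.2 CPM in the controls and 16.6 and 18.2 CPM in the other group (log2 fold change -0.39, SE 0.114), and Tufm was at 65.4, 62.4, 57.1 and 64.5 CPM in the controls and 55.7 and 53.05 CPM (log2 fold change -0.20, SE 0.0840). Gfm2, a factor for ribosome recycling, was above all controls in both libraries (log2 fold change 0.10, SE 0.0728). Mitochondrial transcription and DNA maintenance genes had 6 of 9 below 0 and a median of -0.14. Polrmt, the mitochondrial RNA polymerase, was at 31.95, 33.7, 33.9 and 29.996 CPM in the controls and 27.2 and 26.8 CPM (log2 fold change -0.26, SE 0.0870). Polg, the DNA polymerase, was at 82.8, 77.5, 73.6 and 80.7 CPM in the controls and 62.95 and 66.2 CPM (log2 fold change -0.28, SE 0.0790). Mterf2, of the mitochondrial termination factor family, was above all controls in both (log2 fold change 0.17, SE 0.102). Tsfm, Tufm, Polrmt and Polg had groups apart, with edgeR adjusted p-values from 0.270 to 0.383. Tsfm is also among the top downregulated genes that the authors list from their model with litter. DESeq2 as run here, without litter, did not call Tsfm (adjusted p = 0.0573).

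Of 12 genes of mitochondrial DNA in the table, 9 had a fold change below 0 and the median was -0.36. The 3 most negative, mt-Co2, mt-Atp6 and mt-Co3, had less than 1 CPM in each library, and among the other 9 the middle value was that of mt-Nd1 at -0.18. The rRNA of the small subunit, mt-Rnr1, was at 129.6, 113, 103 and 110.1 CPM in controls 1 to 4 and 144 and 179 CPM in the libraries labelled Foxp1cKO. It was higher in both of the latter (log2 fold change 0.50, SE 0.122, edgeR adjusted p = 0.242), with a DESeq2 adjusted p of 0.0240. The rRNA of the large subunit, mt-Rnr2, overlapped between groups (log2 fold change 0.0623, SE 0.228). Among the proteins the ribosome translates, mt-Cytb was at 2599, 2973, 2873 and 2664 CPM in the controls and 2291 and 1928 CPM (log2 fold change -0.40, SE 0.110, DESeq2 adjusted p = 0.0408) and mt-Co1 was at 5195, 5764, 5524 and 5525 CPM in the controls and 5551 and 5418 CPM (log2 fold change -0.00470, SE 0.0895). The enrichment step for RNA before library preparation, which sets how much rRNA is kept, is not given in the sources used here.

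Regulators of mitochondrial biogenesis had 2 of 10 fold changes below 0 and a median of 0.0604. Nrf1, Gabpa and Yy1, whose motifs were searched above, had log2 fold changes of 0.0937 (SE 0.0911), 0.0370 (SE 0.0997) and 0.0499 (SE 0.0829). Ppargc1a, a coactivator of mitochondrial genes, was at 11.6, 15.6, 15.1 and 13.4 CPM in controls 1 to 4 and 17.1 and 21.1 CPM in the libraries labelled Foxp1cKO. Both lay above all controls (log2 fold change 0.46, SE 0.157, edgeR adjusted p = 0.317). Mycn was at 104, 91.9, 77.7 and 128 CPM in controls 1 to 4 and 125 and 135 CPM in the libraries labelled Foxp1cKO, with control 4 between the 2 (log2 fold change 0.37, SE 0.181).

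Cytosolic ribosomal proteins make up the ribosome outside mitochondria. Of 82 genes, 24 had a fold change below 0 (29.3%) and the median was 0.0547. Both libraries labelled Foxp1cKO lay below all controls for 2 genes (2.44%) and above them for 1 (1.22%), shares under those of all genes. Their mean log2 CPM was 7.78, 7.71, 7.46 and 7.96 in controls 1 to 4 and 7.60 and 7.95 in the libraries labelled Foxp1cKO. Control 3 was again lowest and control 4 highest of the controls, as for the mitochondrial ribosome, but the other group lay within the controls. Against controls 1 to 4 alone the median difference was 0.011, 0.077, 0.348 and -0.159, so its direction depended on the control. With edgeR 0 of the genes in the lists of mitochondrial and ribosomal genes had an adjusted p under 0.05, and differences between lists were not tested. At an unadjusted p under 0.05, 6.5% of all genes were lower and 6.53% were higher. Lower at that p were 2 of 82 cytosolic ribosomal proteins (2.44%), 2 of 25 assembly genes (8%) and 2 of 16 translation factors (12.5%). So were 2 of 9 transcription genes (22.2%) and 4 of 12 genes of mitochondrial DNA (33.3%). Higher at that p were 1 of 25 assembly genes (Mettl15), 1 of 12 genes of mitochondrial DNA (mt-Rnr1) and 1 of 10 regulators (Ppargc1a). DESeq2 called mt-Cytb lower and mt-Rnr1 higher and 0 others of these lists, against 1.31% of all genes lower and 2.06% higher.

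**Figure D5:**
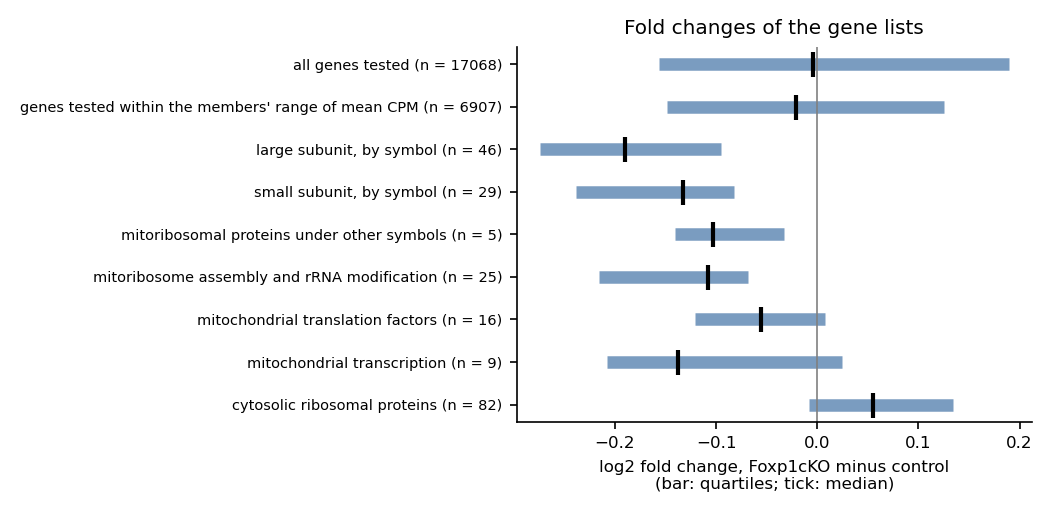
Median (tick) and quartiles (bar) of the fitted log2 fold change (horizontal axis, libraries labelled Foxp1cKO minus controls) over each gene list and over all genes. Medians are -0.19 and -0.13 for the large and small subunits, -0.11 for assembly genes, -0.055 for translation factors, 0.055 for cytosolic ribosomal proteins and -0.0044 for all genes.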

How the data were processed

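Bulk RNA-Seq counts of 6 libraries, 4 controls and 2 labelled Foxp1cKO, were analysed. The authors sequenced paired ends of stranded libraries, aligned them to mm10 (STAR), counted per gene (HTSeq 0.9.1, union mode) and dropped genes of low expression. The deposited counts are whole and not normalized. A deposited table of VST values, on a log2-like scale, served only the limma alternative. Litter, which the authors modelled, is not in the labels and was not used.

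The test was edgeR 4.0.16's quasi-likelihood test in R 4.3.3 (TMM, group alone, 17068 genes, Benjamini-Hochberg adjustment, threshold 0.05). It was also run on simulated data, in which the changes put in were all larger than those of the mitochondrial ribosomal protein genes. That run does not show how well changes of their size are found. Log2 CPM used a prior count of 2. RPKM used merged GENCODE M21 exons. Alternatives were DESeq2 1.42.0, limma 3.58.1, DESeq2 size factors, total counts, filterByExpr, each library left out and a replicate block. Added after seeing the data were a crossed block and controls 1 and 2 alone.

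Genes named were the 5 most negative and 5 most positive fold changes (mean of at least 10 counts), any gene with an adjusted p under 0.05, the 3 highest and 2 lowest control RPKM in each subunit, and Mrpl12, Mrpl10, Mrpl11, Mrpl58, Mrps12, Mrps18a, Mrps18b, Mrps18c, Mrps30 and Mrps36. Mrpl20, neighbouring genes and examples from the lists were chosen after their values were seen. The members and lists were chosen with earlier results of these data known. Promoters are from RefSeq for GRCm38.p6. Library totals were 50076008 to 78346979 counts, and floors cover counting error only. Replicates are separate embryos by their labels, and whether same-numbered libraries share a litter is not given in the sources used here.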

Additional observations from a re-analysis of the deposited data

Results flagged for a closer look

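Mrps21 in control 4 stood far from the other controls. Its log2 CPM was 5.01 there, and the nearest control was at 4.78, a gap of 0.893 of the whole range of the controls, above Dixon's 95% critical value for 4 samples. Of 30 values examined in the controls, the named genes and the subunit means, this was the 1 past it, and chance gives about 1 in 20.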

How the results depend on the processing

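The median log2 fold change of the 75 genes lay between -0.227 and -0.137 over 14 alternatives, and 63 to 71 genes were below 0. The median was -0.263 to -0.146 for the large subunit and -0.191 to -0.104 for the small subunit. The number of genes called was 0 with edgeR, limma, the other scalings, the low-count filter and each library left out (0 to 0), and 3 with the DESeq2 Wald test. The number of genes lower at an unadjusted p under 0.05 was 3 without the library labelled Foxp1cKO 1 and 34 without control 3, against 19 with all libraries, and in the whole table, in either direction, it was 941, 3009 and 2224. Large-subunit minus small-subunit median ran from -0.104 to -0.0192 with each library left out. The replicate block, which pairs libraries by the numbers in their labels, called 0 genes and put 67 of 75 below 0. Only numbers found in both groups inform its group effect, which rests on controls 1 and 2 and both libraries labelled Foxp1cKO. Control 3, the control nearest to those libraries in the level of the 75 genes, does not enter it, so this setting is no check on all libraries. Deviations of same-numbered libraries correlated at -0.117 over 2 shared numbers, and they come from different embryos. The crossed block swaps the numbered pairs, and its group effect rests on the same libraries, again without control 3. It called 2 of the 75 genes, Mrpl28 and Mrps23, and 459 lower and 842 higher genes in the whole table. Over the alternatives, adjusted p-values ran from 0.0177 to 0.885 for Mrps23, from 0.0332 to 0.885 for Mrpl11 and from 0.0271 to 0.915 for Mrpl28. Near-zero fold changes changed sign: Mrpl48 was 0.0049 with total counts; Mrps35 was -0.011 with the replicate block and with the crossed block and -0.0053 with controls 1 and 2 alone. With each library left out, values ran from -0.0662 to 0.0642 for Mrpl10, -0.0192 to 0.112 for Mrpl42, -0.135 to 0.128 for Mrps35 and -0.0167 to 0.113 for Mrps30. The cause was not tested. P-values rest on 2 libraries in 1 group.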
